A study of Mus musculus with 5 samples.

Results

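The transcript levels of p53 and of 9 genes that p53 activates were examined in mouse liver tumours. The 10 genes (Trp53, Cdkn1a, Mdm2, Ccng1, Bax, Phlda3, Trp53inp1, Sesn2, Gdf15 and Btg2) were taken by symbol from a table of 22287 genes, where each had 1 row, and all 10 passed the expression filter. Tumours came from 3 lnc-CTHCC-/- (KO) and 2 wild-type (WT) samples, both of the strain C57BL/6 and both given the treatment labelled DEN+CCl4 for 5 months. lnc-CTHCC is a long non-coding RNA, DEN a carcinogen that alkylates liver DNA, and CCl4 a hepatotoxin that causes repeated injury and regeneration. The labels used here give neither the way the allele was made nor the sex or age of the mice, and they do not say whether each sample was a different animal.

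p53, the product of Trp53, is a transcription factor held at a low level by MDM2, a ubiquitin ligase that binds it and marks it for degradation. DNA damage and other stresses release p53 from MDM2, and it then activates genes that stop the cell cycle, repair DNA, adjust metabolism or trigger cell death. Because Mdm2 is itself a target, p53 raises its own inhibitor, and transcripts such as Cdkn1a are widely used as a readout of p53 activity, which is set mostly at the protein level. In hepatocytes the pathway can act as a barrier to tumours, and its part in the tumours described here was not tested.

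p53 binds a response element made of a pair of 10-base sites. The RefSeq promoter windows (GRCm38.p6), which run from 250 bases before to 50 bases after a transcription start, were searched for it on both strands, with the C and G of each CNNG core kept. Windows existed for 9 of the 10 genes, 11 windows in all, and for Trp53inp1 there was none. An element with at most 1 mismatch lay in the windows of 2 genes, Cdkn1a and Ccng1, and in 0.067% of all 32851 windows. An element with at most 3 mismatches also lay before Trp53, and in 1.38% of all windows. At least 1 exact 10-base site was found in 5 of the 11 windows, those of Cdkn1a, Ccng1, Trp53, Bax and Mdm2, and in 8.36% of all windows. Of 44 other p53 targets in fixed lists, 33 had a window that was counted. Pmaip1 was left out of this count and of the counts of elements that follow. Whether it had a window or an element is therefore not given here. Among the 48 windows counted, an element with at most 1 mismatch stood in those of Rps27l and Gtse1. With at most 3 mismatches there was an element in 7 windows of 6 genes, which added Aen, Bbc3, Sesn1 and Tigar. A match describes letters only, and the p53-responsive promoter of Mdm2, which lies in the first intron, is outside its window. The elements of the 3 members and of Rps27l are shown with 30 bases either side, and that of Gtse1, which spans the start, alone, because they place the sequence p53 reads beside the transcripts described here. Capitals mark the 20-base element, 5′ to 3′ on the strand of the gene.
Cdkn1a: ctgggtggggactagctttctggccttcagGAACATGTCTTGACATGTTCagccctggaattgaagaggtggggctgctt
Ccng1: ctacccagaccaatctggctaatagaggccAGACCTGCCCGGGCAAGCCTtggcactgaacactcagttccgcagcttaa
Trp53: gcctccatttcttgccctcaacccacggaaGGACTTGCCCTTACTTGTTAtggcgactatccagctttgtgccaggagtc
Rps27l: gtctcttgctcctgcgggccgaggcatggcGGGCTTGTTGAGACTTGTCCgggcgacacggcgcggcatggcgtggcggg
Gtse1: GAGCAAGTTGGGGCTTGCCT
The Cdkn1a stretch is chr17:29090898-29090977 on the plus strand, with the element from -51 to -32 relative to the upstream of its 2 RefSeq starts. The Ccng1 stretch is chr11:40755432-40755511 on the minus strand, with the element from -195 to -176. The Trp53 stretch is chr11:69580254-69580333 on the plus strand, with the element from -75 to -56 and 3 mismatches. The Rps27l stretch is chr9:66946266-66946345 and the Gtse1 element chr15:85859945-85859964, both on the plus strand.

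Values were the authors' FPKM, which scale fragments to gene length and library size. They summed to between 526229 and 537958 in the KO libraries and to 530213 and 552619 in the WT libraries, and the number of reads behind them is unknown. The first principal component (43.9% of the variance of the genes tested) placed KO 1, KO 2 and KO 3 at 0.524, -10.0 and 5.94 and WT 1 and WT 2 at -23.8 and 27.3, so the WT libraries lay farther from each other on it than any KO library did from either. Liver identity was plain: 9 of 10 hepatocyte markers were matched in the table, all were tested, none was at 0, and they summed to 124325 to 127372 FPKM in KO and to 111187 and 147046 FPKM in WT tumours. Markers of T and NK cells summed to 1.55 to 3.46 FPKM in KO and to 3.34 and 5.99 FPKM in WT tumours, and of neutrophils to 4.92 to 9.49 FPKM in KO and to 5.26 and 6.65 FPKM in WT tumours, with Ly6g, Elane and Camp at 0 in some libraries.

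The comparison of KO with WT tumours asks whether the p53 transcripts differ when lnc-CTHCC is lost. None of the 10 genes passed the threshold. Gdf15, Btg2, Trp53 and Mdm2 had the largest means in KO relative to WT, and Trp53inp1, Phlda3 and Cdkn1a had lower means in KO, but each 95% interval of the difference included 0. By limma across all 10132 genes tested, adjusted over all of them, 0 of 10 members passed at 0.05, beside 0.00987% of all genes; the adjusted p was 0.999 for each member. At an unadjusted p under 0.05 the count was also 0 of 10, beside 3.23% of all genes. In the authors' deposited table the unadjusted p of the members ran from 0.0597 for Gdf15 to 0.77 for Bax, with 0 of 10 at a false discovery rate under 0.05, beside 0.162% of all genes in that table. With 2 against 3 libraries an exact permutation test cannot give a two-sided p below 0.1.

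**Figure D1:**
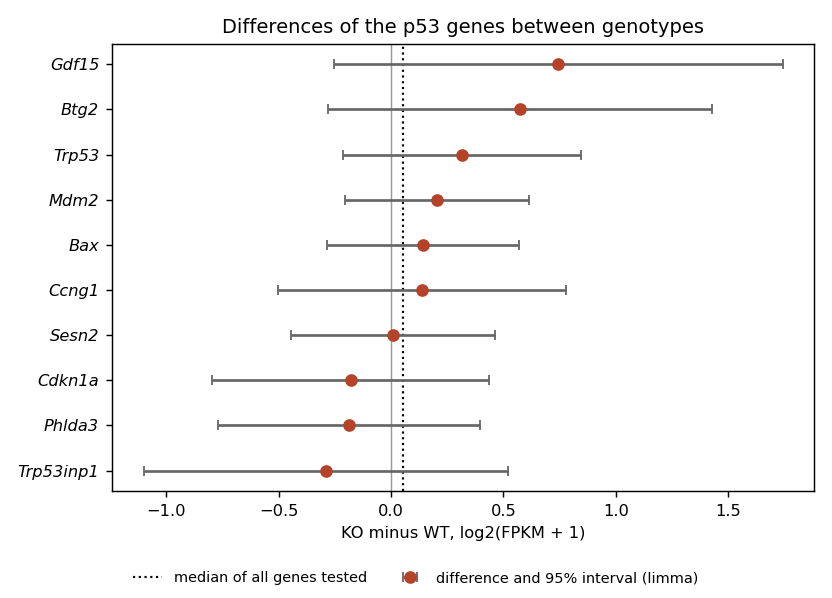
Difference between KO and WT liver tumours for p53 and 9 target genes, as log2(FPKM + 1) in KO minus that in WT (points), with 95% intervals from limma (bars) and the median of all 10132 genes tested (dotted line, 0.05). The points run from -0.29 for Trp53inp1 to 0.74 for Gdf15, and all 10 bars cross 0.

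The mean log2 difference was above 0 in 7 of 10 members, beside 61.4% of all genes tested, and the members' median was 0.14, beside 0.05 for all genes. Without WT 2 these medians were 0.18 for the members and 0.16 for all genes, without WT 1 0.17 and -0.07, and without KO 1 -0.0016 and 0.02. These differences, like those below, are KO minus WT of log2(FPKM + 1), so that those of low genes are compressed. Mdm2 was the 1 member whose KO values all lay above both WT values, beside 9.78% of all genes. In bulk tumour RNA, fewer cells of a type and less RNA per cell cannot be told apart.

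Trp53 (ENSMUSG00000059552, chromosome 11, 69580359 to 69591873, plus strand), the gene of p53 itself, had 14.65, 14.68 and 11.68 FPKM in the KO libraries and 13.81 and 8.29 FPKM in the WT libraries. WT 2 alone was low, and the other WT library lay within the KO values. The means were 13.7 ± 1.72 FPKM (SD, n = 3) in KO and 11.1 ± 3.90 FPKM (SD, n = 2) in WT tumours, a log2 difference of 0.32 (SE 0.234, 95% interval -0.22 to 0.85). Without WT 2 the difference was -0.02.

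Mdm2 (ENSMUSG00000020184, chromosome 10, 117688875 to 117710758, minus strand), which encodes the ligase that restrains p53, was at 11.09, 9.04 and 9.34 FPKM in the KO libraries and at 8.26 and 8.46 FPKM in the WT libraries. All 3 KO values were above both WT values, by a small margin in KO 2. The means were 9.82 ± 1.11 FPKM (SD, n = 3) in KO and 8.36 ± 0.141 FPKM (SD, n = 2) in WT tumours, a ratio of 1.18 and a log2 difference of 0.20 (SE 0.180, 95% interval -0.20 to 0.61), which was 0.12 without KO 1. The highest value was 1.34 times the lowest, beside a median of 1.56 times over 10129 genes tested that had no value of 0.

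**Figure D2:**
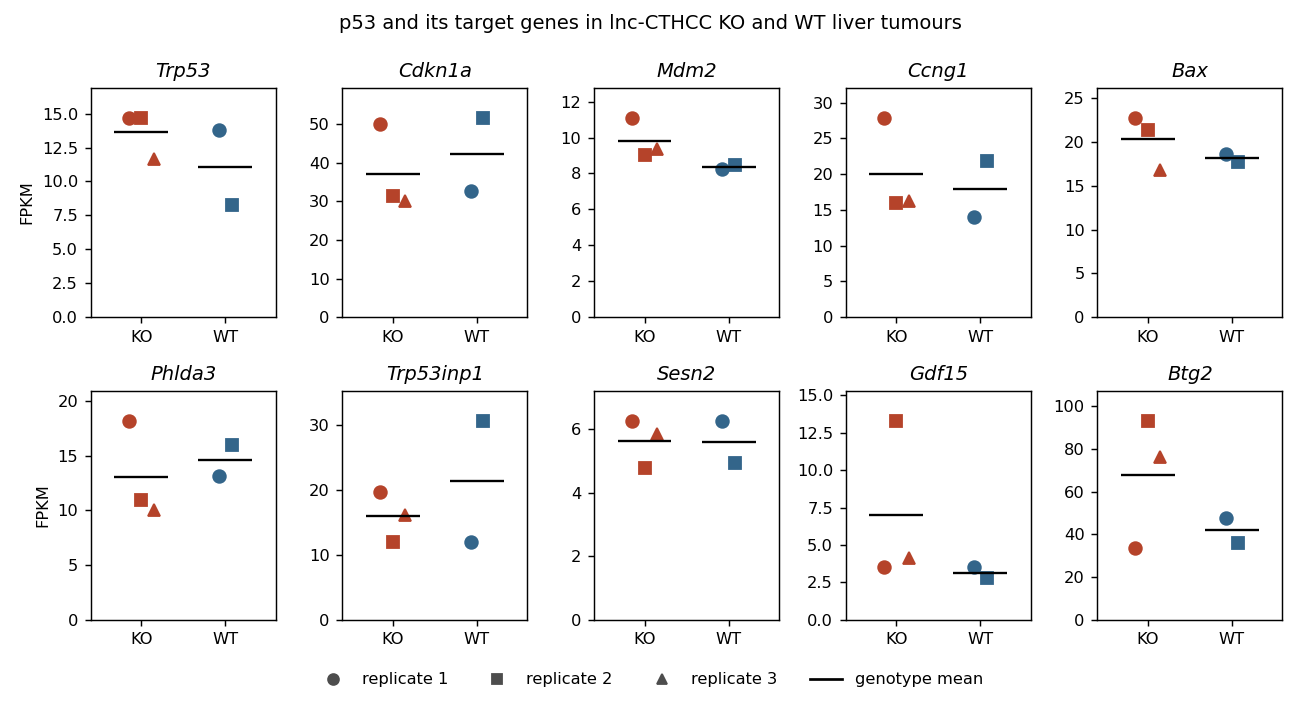
FPKM of p53 and 9 target genes in every library, KO left and WT right in each panel, with the shape giving the replicate number and the bar the genotype mean (linear axes from 0). Cdkn1a, Ccng1, Phlda3 and Trp53inp1 are highest in KO 1 and WT 2, Gdf15 and Btg2 in KO 2 and KO 3, and only in the Mdm2 panel do the genotypes not overlap.

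Among targets that arrest the cell cycle, Cdkn1a (ENSMUSG00000023067, chromosome 17, 29090976 to 29100727, plus strand) encodes p21, the inhibitor of cyclin-dependent kinases through which p53 halts division. It was at 50.02, 31.40 and 30.11 FPKM in the KO libraries and at 32.74 and 51.58 FPKM in the WT libraries. Each genotype held 1 library near 50 FPKM and the rest near 30 FPKM, so the groups overlapped throughout. The means were 37.2 ± 11.1 FPKM (SD, n = 3) in KO and 42.2 ± 13.3 FPKM (SD, n = 2) in WT tumours, a log2 difference of -0.18 (SE 0.271, 95% interval -0.80 to 0.44), which was 0.14 without WT 2.

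Ccng1 (ENSMUSG00000020326, chromosome 11, 40748552 to 40755311, minus strand), cyclin G1, recruits a phosphatase to MDM2. It was at 27.87, 16.03 and 16.26 FPKM in the KO libraries and at 14.03 and 21.87 FPKM in the WT libraries. KO 1 and WT 2 were again the high libraries. The log2 difference was 0.14 (SE 0.281, 95% interval -0.50 to 0.78), and it was -0.17 without WT 1 and -0.11 without KO 1.

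Phlda3 (ENSMUSG00000041801, chromosome 1, 135766119 to 135769136, plus strand) encodes a pleckstrin homology protein that competes with AKT for membrane lipids and so dampens survival signalling. It was at 18.19, 10.94 and 10.02 FPKM in the KO libraries and at 13.14 and 15.99 FPKM in the WT libraries. Both WT values lay between the extremes of KO. The log2 difference was -0.19 (SE 0.257, 95% interval -0.77 to 0.40). It was -0.43 without KO 1, -0.09 without KO 2, -0.03 without KO 3, -0.32 without WT 1 and -0.05 without WT 2.

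Btg2 (ENSMUSG00000020423, chromosome 1, 134075170 to 134079120, minus strand), an antiproliferative protein that promotes mRNA deadenylation, was the member with the highest mean level in KO tumours. It was at 33.75, 93.32 and 76.35 FPKM in the KO libraries and at 47.63 and 36.16 FPKM in the WT libraries. KO 2 and KO 3 lay above both WT libraries, and KO 1 below both. The means were 67.8 ± 30.7 FPKM (SD, n = 3) in KO and 41.9 ± 8.11 FPKM (SD, n = 2) in WT tumours, a log2 difference of 0.57 (SE 0.376, 95% interval -0.28 to 1.43). The difference was 1.01 without KO 1 and 0.29 without KO 2.

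Among targets that act in cell death, Bax (ENSMUSG00000003873, chromosome 7, 45461697 to 45466898, minus strand) encodes the protein that permeabilises the outer mitochondrial membrane. It was at 22.76, 21.39 and 16.77 FPKM in the KO libraries and at 18.65 and 17.71 FPKM in the WT libraries. The WT values lay inside the KO range, and the log2 difference was 0.14 (SE 0.187, 95% interval -0.28 to 0.57), which was 0.06 without KO 1 and 0.27 without KO 3. Its locus shares 915 bases with Gm45808 on the same strand, so its value is uncertain as far as fragments were split between them.

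Trp53inp1 (ENSMUSG00000028211, chromosome 4, 11156431 to 11174379, plus strand) encodes a stress protein that promotes apoptosis and autophagy. It was at 19.68, 11.90 and 16.13 FPKM in the KO libraries and at 11.98 and 30.65 FPKM in the WT libraries. The highest value of all and the next to lowest were both WT, a 2.56-fold span within 1 genotype. The log2 difference was -0.29 (SE 0.357, 95% interval -1.10 to 0.52), and it was 0.35 without WT 2.

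Sesn2 and Gdf15 respond to p53 and also to other stresses, including the integrated stress response through ATF4. Sesn2 (ENSMUSG00000028893, chromosome 4, 132492032 to 132510501, minus strand), sestrin 2, restrains mTORC1 signalling. It was at 6.27, 4.78 and 5.84 FPKM in the KO libraries and at 6.26 and 4.92 FPKM in the WT libraries. Its log2 difference was 0.01 (SE 0.200, 95% interval -0.44 to 0.46), and its highest value was 1.31 times its lowest, the narrowest span of the 10 members. It overlaps Gm12981 on the same strand over 6089 bases.

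Gdf15 (ENSMUSG00000038508, chromosome 8, 70629393 to 70632456, minus strand) encodes a secreted stress hormone that lowers food intake through a brainstem receptor. It was at 3.51, 13.31 and 4.15 FPKM in the KO libraries and at 3.54 and 2.77 FPKM in the WT libraries. KO 2 stood at more than 3 times any other value, and KO 1 lay just below WT 1. The means were 6.99 ± 5.48 FPKM (SD, n = 3) in KO and 3.16 ± 0.544 FPKM (SD, n = 2) in WT tumours, a ratio of 2.22 and a log2 difference of 0.74 (SE 0.439, 95% interval -0.25 to 1.74). Without KO 2 the difference was 0.22.

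Levels can be compared between genes because FPKM are per gene length. In KO tumours the order of the means was Btg2 (67.8 FPKM), Cdkn1a (37.2), Bax (20.3), Ccng1 (20.1), Trp53inp1 (15.9), Trp53 (13.7), Phlda3 (13.1), Mdm2 (9.82), Gdf15 (6.99) and Sesn2 (5.63). Among neighbours in that order, the ranges over the KO libraries did not overlap for Cdkn1a above Bax, and overlapped for every other pair. In WT tumours the order was Cdkn1a (42.2 FPKM), Btg2 (41.9), Trp53inp1 (21.3), Bax (18.2), Ccng1 (17.95), Phlda3 (14.6), Trp53 (11.1), Mdm2 (8.36), Sesn2 (5.59) and Gdf15 (3.16). There the neighbours whose ranges did not overlap were Btg2 above Trp53inp1, Mdm2 above Sesn2, and Sesn2 above Gdf15. By its mean over the 5 libraries, Btg2 stood at the 92.3 percentile of the genes tested, Cdkn1a at 88.8 and Gdf15 at 45.6.

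**Figure D3:**
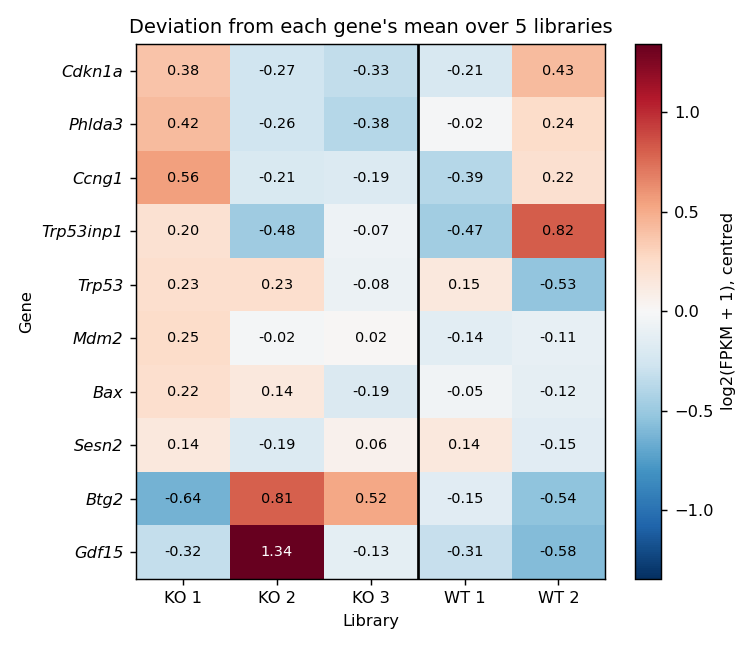
Deviation of each gene (rows) from its own mean over the 5 libraries (columns, KO left of the line and WT right of it), in log2(FPKM + 1). Cdkn1a, Phlda3, Ccng1 and Trp53inp1 are above their means in KO 1 and WT 2, while Gdf15 deviates by 1.34 in KO 2 and Trp53 by -0.53 in WT 2.

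The genotypes overlapped in 9 of the 10 members, and of all genes tested 15.1% showed no overlap, in either direction. Libraries of 1 genotype often lay far apart. Cdkn1a, Ccng1, Phlda3 and Trp53inp1 had their 2 highest values in KO 1 and WT 2, 4 of 10 members, beside 26.2% of all genes tested, and this pair of libraries was the most frequent among all genes too. Gdf15 and Btg2 had theirs in KO 2 and KO 3, a pair found in 3.36% of all genes. Trp53 itself was lowest in WT 2, the library with the highest Cdkn1a and Trp53inp1. Measured as the root mean square difference between centred log2 profiles, the closest members were Cdkn1a and Phlda3 (0.122), Mdm2 and Bax (0.127), Mdm2 and Sesn2 (0.155), and Cdkn1a and Ccng1 (0.160). This measure is small between any genes with narrow spans, and the highest value over the lowest was 1.34 for Mdm2, 1.36 for Bax and 1.31 for Sesn2. In WT 1 the centred value was 0.14 for Sesn2 and -0.14 for Mdm2. The pairs of libraries named here and the closeness of Cdkn1a and Ccng1 were noted after the values were seen.

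Marker sums of other cell types also varied between these libraries. The 8 macrophage and Kupffer cell markers summed to 148, 76.0 and 147 FPKM in KO 1, KO 2 and KO 3, and to 102 and 142 FPKM in WT 1 and WT 2, with none at 0. The 7 cholangiocyte markers, mostly Spp1, summed to 335, 155 and 349 FPKM in the KO libraries and to 150 and 425 FPKM in the WT libraries, with none at 0. B and plasma cell markers (8 of 8 in the table, none at 0) summed to 123, 141 and 47.0 FPKM in KO and to 188 and 504 FPKM in WT. Stellate cell and fibroblast markers (8 of 8, none at 0) summed to 152, 101 and 114 FPKM in KO and to 89.0 and 115 FPKM in WT, and endothelial markers (8 of 8, none at 0) to 83.6, 52.4 and 63.9 FPKM in KO and to 56.2 and 50.1 FPKM in WT. Erythroid markers (6 of 6, none at 0) summed to 773, 698 and 476 FPKM in KO and to 733 and 362 FPKM in WT. Their part in the values of the p53 genes was not tested.

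The genes whose profile over the 5 libraries was most like that of a member were found among all genes tested, leaving out predicted and clone names. For Cdkn1a they were Depdc5, a repressor of mTORC1 (root mean square difference 0.0562), Flna, filamin A (0.0679), Gmds, an enzyme of GDP-fucose synthesis (0.0768), Socs3, a feedback inhibitor of cytokine signalling (0.0774), and Fxyd5 (0.0816). Flna was at 7.56, 4.57 and 4.46 FPKM in the KO libraries and at 5.24 and 7.44 FPKM in the WT libraries, with KO 1 and WT 2 high as for Cdkn1a. For Gdf15 they were Jun, a subunit of AP-1 (0.148), Rgs3 (0.189), Atf3, a stress-induced transcription factor (0.205), Hilpda, a lipid droplet protein (0.218), and Arrdc3 (0.263). Jun was at 8.55, 27.84 and 9.36 FPKM in the KO libraries and at 6.71 and 7.78 FPKM in the WT libraries, again with KO 2 far above the rest. For Mdm2 they were Fam114a1 (0.0188), Bin3 (0.0236), Nedd4l (0.0257), Lancl1 (0.0263) and Yap1 (0.0268), all with narrow spans.

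The rest of the pathway was described from fixed lists. Of 44 other p53 targets 35 passed the expression filter and none passed the test in either direction. Their median log2 difference was 0.08, beside 0.05 for all genes. The KO mean was higher in 25, beside 61.4% of all genes, and lower in 10. At an unadjusted p under 0.05 there were 2 higher (Plk3 and Bbc3), beside 1.78% of all genes, and 1 lower (Steap3), beside 1.45%. KO values lay above WT without overlap in 5 of 35 (Plk3, Bbc3, Apaf1, Perp and Tigar), beside 9.78% of all genes, and below in 2 of 35 (Steap3 and Prkab1), beside 5.29%. Apaf1, at a mean of 1.58 FPKM in KO and 0.995 FPKM in WT, passed the filter of 1 FPKM only through its KO values.

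**Figure D4:**
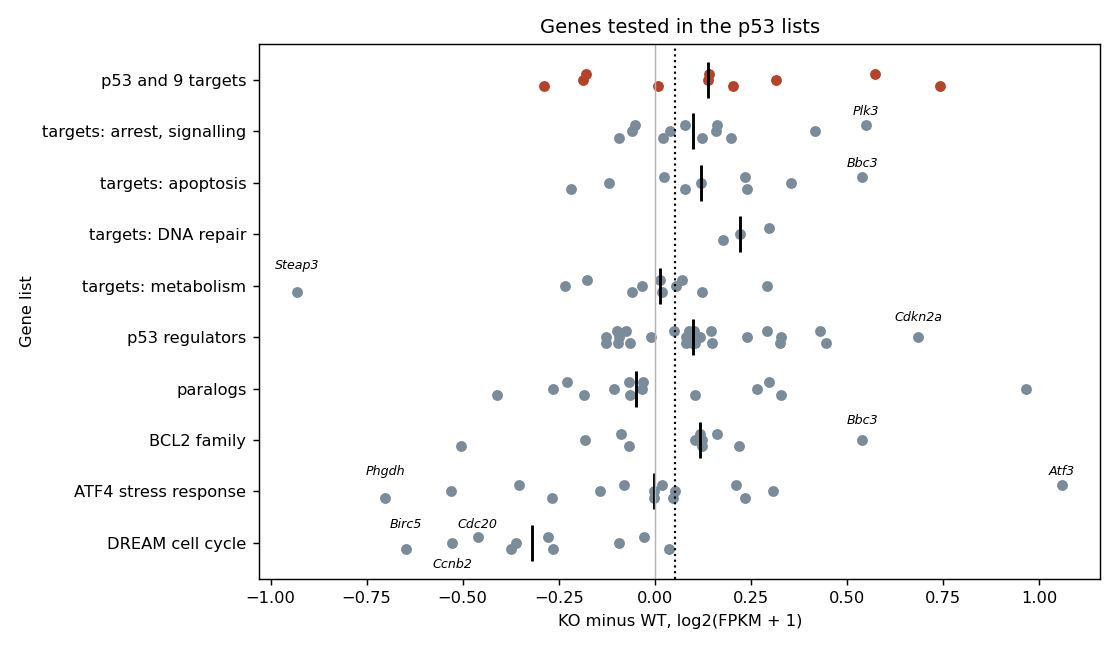
Differences in log2(FPKM + 1), KO minus WT, of every gene tested in 10 lists of the p53 network (points), with the median of each list (bars) and of all genes tested (dotted line, 0.05). Names mark genes at an unadjusted limma p under 0.05; the medians run from -0.32 for the cell cycle list to 0.22 for the DNA repair targets.

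Arrest and signalling targets had a median of 0.10 over 12 genes. Plk3, a stress-responsive polo-like kinase, was at 10.35, 14.91 and 14.67 FPKM in the KO libraries and at 8.56 and 8.78 FPKM in the WT libraries, with no overlap (log2 difference 0.55, limma adjusted p = 0.999). Epha2, an ephrin receptor, had a log2 difference of 0.42, Ptp4a3, a phosphatase, of 0.20 and Pml, which forms nuclear bodies, of 0.16. Rprm and Ptprv were listed at 0 in some libraries and were not tested.

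Apoptosis targets had a median of 0.12 over 9 genes. Bbc3, which encodes PUMA, a trigger of BAX, was at 2.36, 2.13 and 3.99 FPKM in the KO libraries and at 1.64 and 1.51 FPKM in the WT libraries, also without overlap (log2 difference 0.54, limma adjusted p = 0.999). Apaf1, the scaffold of the apoptosome, had a log2 difference of 0.35, Tnfrsf10b, a death receptor, of 0.24 and Perp, a membrane protein, of 0.23. Within the BCL2 family 7 of 11 genes tested had a higher mean in KO, beside 61.4% of all genes, and the median was 0.12. Bcl2l2 had a log2 difference of 0.22, Bad of -0.18 and Bcl2a1b of -0.50, and no gene of the family passed.

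The 3 DNA repair targets tested were Polk, a translesion polymerase (log2 difference 0.30), Ercc5, an excision repair nuclease (0.22), and Xpc, a damage sensor (0.18). All 3 had a higher mean in KO, beside 61.4% of all genes, and overlapped with WT. Metabolic and autophagy targets had a median of 0.01 over 11 genes. Steap3, a ferrireductase, was at 2.34, 2.02 and 2.32 FPKM in the KO libraries and at 5.85 and 4.51 FPKM in the WT libraries. It had the smallest p of the other p53 targets and no overlap (log2 difference -0.93, SE 0.191, limma adjusted p = 0.705). Tigar, a phosphatase that slows glycolysis, had a log2 difference of 0.29, Prkab1, a subunit of AMPK, of -0.23 and Tsc2, an inhibitor of mTORC1, of 0.12.

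Regulators of p53 had a median of 0.10 over 26 genes tested of 29, and 0 passed, beside 0.00987% of all genes. The KO mean was higher in 18, beside 61.4% of all genes, and lower in 8. KO values lay above WT without overlap in 4 (Cdkn2a, Kat5, Ube4b and Rpl5), beside 9.78% of all genes. They lay below in 1 (Rchy1), beside 5.29%. Cdkn2a, whose ARF product blocks MDM2 and whose INK4A product inhibits CDK4, was at 7.32, 5.86 and 4.83 FPKM in the KO libraries and at 3.11 and 3.52 FPKM in the WT libraries. All KO values were above both WT values (log2 difference 0.69, SE 0.210, limma unadjusted p = 0.0102, adjusted p = 0.999), and gene-level values cannot tell the products apart. Kat5, an acetyltransferase, had a log2 difference of 0.43, Ube4b, a ubiquitin ligase, of 0.33, and Rpl5, a ribosomal protein that binds MDM2, of 0.24. The 14 tested paralogs of the members had a median of -0.05. Trp63 was listed at 0 in all libraries and Trp73 in all but KO 2, at 0.02 FPKM. Phlda1, a relative of Phlda3, was at 25.45, 21.72 and 6.67 FPKM in the KO libraries and at 10.13 and 5.53 FPKM in the WT libraries, with overlap through KO 3. Tob1, Tob2 and Cdkn1b, which restrain proliferation, had log2 differences of 0.33, -0.41 and 0.30.

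Genes of the integrated stress response, which also drives Sesn2 and Gdf15, had a median of -0.0024 over 15 genes tested, and 0 passed. Their KO mean was higher in 7, beside 61.4% of all genes, and lower in 8. At a limma unadjusted p under 0.05, 1 was higher (Atf3), beside 1.78% of all genes, and 1 lower (Phgdh), beside 1.45%. KO values lay above WT without overlap in 1 (Atf3), beside 9.78% of all genes, and below in 0, beside 5.29%. Atf3 was at 3.65, 11.12 and 3.76 FPKM in the KO libraries and at 2.78 and 1.53 FPKM in the WT libraries (log2 difference 1.06, limma adjusted p = 0.999). Phgdh, of serine synthesis, had a log2 difference of -0.70, Cebpb, a transcription factor, of -0.35 and Ppp1r15a, which reverses the response, of 0.31. Cell cycle genes that p53 lowers through p21 and the DREAM complex had a median of -0.32 over 10 genes tested of 15, and 0 passed. Their KO mean was lower in 9 and higher in 1 (E2f1), beside 61.4% of all genes higher. At an unadjusted p under 0.05, 3 of these 10 were lower, beside 1.45% of all genes, and 5 of 10 lay below WT without overlap (Birc5, Ccnb2, Cdc20, Ccnb1 and Cdk1), beside 5.29%. Ccnb1, at a mean of 0.857 FPKM in KO and 1.40 FPKM in WT, passed the filter of 1 FPKM only through its WT values. Birc5, survivin, had a log2 difference of -0.65, and the mitotic regulators Ccnb2, Cdc20 and Ccnb1 of -0.53, -0.46 and -0.37, at levels of 0.73 to 1.95 FPKM in KO and 1.32 to 3.61 FPKM in WT.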

How the data were processed

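Gene values of 5 libraries were the authors' FPKM, rounded to 2 decimals, per the file headers. Tools named by the submitters' processing notes are HISAT2, StringTie, limma, DESeq2 and bcl2fastq 2.0, with the build mm10 and no roles; the annotation and strand setting are not stated. Per the file headers, the authors also deposited a log2 fold change, a p-value and its false discovery rate.

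Genotypes and replicate numbers came from the sample titles. FPKM were turned into log2(FPKM + 1). Genes averaging at least 1 FPKM were kept, 10132 in all. The genotypes were compared with limma 3.58.1 (R 4.3.3, trended empirical Bayes, two-sided, 3 residual degrees of freedom), adjusted by Benjamini-Hochberg over the genes tested. The procedure was tested on simulated data with independent errors. Those data held no differences shared across a whole library, so they do not show how the procedure performs on these libraries. Replicate spread may be technical, since separate animals are not stated. FPKM hold no counts, so precision due to depth is unknown. Coordinates are from GENCODE vM21 (GRCm38, as mm10), and promoters from RefSeq (GRCm38.p6).

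The members and lists were chosen with earlier results of these data known. Named were the 10 members, up to 4 genes per list by smallest unadjusted p, 5 genes per profile search, and the genes that a count singles out; the marker Spp1 was named after its values were seen. Figures used matplotlib 3.10.9 in Python 3.11.15.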

Additional observations from a re-analysis of the deposited data

How the results depend on the processing

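None of the 10 members passed at an adjusted p of 0.05 under any of the 15 alternatives; the smallest adjusted p of a member by limma was 0.293, without WT 1. The count of all genes called, 1 with all libraries, was 0 after quantile normalization, median-ratio rescaling or rescaling to a common sum, 0 with a pseudocount of 5, 0 with no expression filter, 0 with a minimum mean of 5 FPKM, 3 with robust empirical Bayes, and 0 to 17 with 1 library left out. The members' median log2 difference was 0.14 and lay between -0.0016 (without KO 1) and 0.25; that of all genes tested, 0.05, lay between -0.07 (without WT 1) and 0.16 (without WT 2) and was 0.0025 after median-ratio rescaling, where the members' was 0.08. That of the other p53 targets, 0.08 with all libraries, was 0.0203 after median-ratio rescaling and -0.0037 to 0.15 with 1 library left out. Sesn2, at 0.01, was at -0.0452 after median-ratio rescaling, at -0.0508 after quantile normalization, and between -0.14 and 0.16 with 1 library left out. With 1 library left out, Trp53 lay between -0.0207 and 0.65, Cdkn1a between -0.50 and 0.14, Ccng1 between -0.17 and 0.44 and Trp53inp1 between -0.93 and 0.35. Mdm2 (0.12 to 0.26), Bax (0.06 to 0.27), Phlda3 (-0.43 to -0.03), Gdf15 (0.22 to 1.05) and Btg2 (0.29 to 1.01) kept their sign there and under the other alternatives. Unadjusted p under 0.05 arose for Trp53 and Trp53inp1 without WT 1 and for Gdf15 and Btg2 without KO 1. The genotypes share replicate numbers 1 and 2 but nothing says that these mark a shared source. Deviations of KO 1 and WT 1 correlated at 0.0884 across genes and those of KO 2 and WT 2 at -0.241. Those of KO 3 and WT 2, which share no number, correlated at 0.319. Because the deviations of 2 WT libraries mirror each other, the values for WT 1 and WT 2 differ only in sign and cannot settle a pairing. With the replicate number as a block, KO 3 is left without a partner and adds nothing to the estimates. These equal those without KO 3, as at 0.42 for Trp53 and 0.96 for Gdf15. The block also leaves fewer residual degrees of freedom than the 3 of the main fit. In the block fit 62 genes were called (19 higher, 43 lower), no member among them, and Gdf15 reached an unadjusted p under 0.05. The median of the other p53 targets was 0.15 there and Sesn2 was at -0.0163. The causes of these changes were not tested. The number of reads is unknown, so it cannot be said which differences more depth would resolve.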
